A study of Saccharomyces cerevisiae with 66 samples.

Results

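The genes of copper handling described here were followed through 11 budding yeast strains in early meiosis. They are the metallothionein gene CUP1-1, the second metallothionein gene CRS5, the superoxide dismutase gene SOD1, the copper-responsive activator gene CUP2 and the copper chaperone gene CCS1. They were chosen as the gene lines whose symbol or systematic identifier matched these names, and they make up 5 of the 6171 genes counted. The data are poly(A)-selected RNA-seq counts from 66 libraries in 22 groups of 3. Each strain had 3 libraries with indole-3-acetic acid (IAA, auxin), which directs a degron-tagged protein to destruction through the plant receptor TIR, and 3 with the solvent DMSO. In 10 strains the titles name the targeted RNA factor: CAF40, POP2 and NOT5 of the Ccr4-Not deadenylase complex, the decapping enzyme DCP2, its activators LSM1 and PAT1, the poly(A)-binding protein PAB1, the exonucleases RAT1 and XRN1, and the exosome subunit RRP6. In the control strain, WT, TIR is present and no factor is targeted.

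All strains were MATa/alpha diploids with ho::LYS2, lys2, ura3, leu2::hisG and trp1::hisG his3:p550. The targeted factors carried a 3V5-IAA7 tag with a KanMX6 marker, except that the CAF40 genotype lists no tag. Sampling was at 4 h in sporulation medium. The protocol text, the same beside every sample, has CuSO4 at 50 µM and IAA at 500 µM added 3 h after transfer. Copper in the DMSO cultures is not mentioned in that text, so within a targeted strain the effects of IAA, of copper and of losing the factor cannot be told apart. The same text stands beside WT, which has no target. No promoter is given for the receptor gene, and a degron acts on the protein, so the mRNA of a targeted factor does not check the labels. Nothing in the labels says that libraries 1 to 3 of a group were separate cultures, so the p-values below measure only spread between libraries. In the main fit that spread was estimated for each gene over all 22 groups together, not within the groups compared.

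Copper is both a cofactor and a poison for yeast. The transcription factor Cup2, also called Ace1, binds copper ions, folds into its DNA-binding form and activates the metallothionein genes, whose small cysteine-rich proteins sequester the metal. SOD1 is a further Cup2 target, and its product, which removes superoxide, receives copper from the chaperone Ccs1. When copper is scarce, a different factor, Mac1, activates the genes of high-affinity copper uptake.

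The reference promoters of the metallothionein genes and SOD1 are shown because Cup2 is known to act there. Each line is the coding-sense strand of the R64 reference assembly (RefSeq), 5′ to 3′, from 250 to 101 bases before the start codon, with matches to the published Ace1 consensus in capitals. The windows lie at chrVIII:212821-212970 (minus strand) for CUP1-1, chrXV:388963-389112 (plus strand) for CRS5 and chrX:623115-623264 (minus strand) for SOD1.
CUP1-1: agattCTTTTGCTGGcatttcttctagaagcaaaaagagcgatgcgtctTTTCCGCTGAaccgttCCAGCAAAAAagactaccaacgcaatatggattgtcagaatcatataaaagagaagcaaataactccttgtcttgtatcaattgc
CRS5: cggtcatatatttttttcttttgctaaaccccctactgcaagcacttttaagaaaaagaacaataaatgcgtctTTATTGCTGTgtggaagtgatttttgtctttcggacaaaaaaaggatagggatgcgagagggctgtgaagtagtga
SOD1: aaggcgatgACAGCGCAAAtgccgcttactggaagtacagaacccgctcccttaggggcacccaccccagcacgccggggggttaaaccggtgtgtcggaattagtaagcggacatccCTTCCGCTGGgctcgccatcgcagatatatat

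CUP1-1 held 3 consensus matches, at 245 to 236, 201 to 192 and 185 to 176 bases before the start codon, counted back from its first base. The outer 2 of them contain the stricter word TTTTGCTG, the last on the opposite strand. CRS5 held 1 consensus match, at 176 to 167 bases, and SOD1 held 2, at 241 to 232 and 132 to 123 bases. CUP2 and CCS1 had 1 each, at 94 to 85 and 11 to 2 bases. Both strands were searched from 250 bases before to 50 bases after the start codon of 6019 genes, and overlapping matches were counted. In those windows the consensus was found in 19.9% of genes, at least 2 matches in 2.46% and at least 3 in 0.116%. TTTTGCTG was found in 2.56% of the windows, and only CUP1-1 and its copy CUP1-2 held it at 2 or more places (0.0332%). The Mac1 word TTTGCTCA (1.55% of windows) and the canonical heat shock element (0.781%) had no match in any of the 5 genes. The stress response word AGGGG, found in 21.6% of windows, had 2 matches in CRS5, 1 in SOD1 and 1 in CUP2. These matches are letters in a reference strain's sequence and were not tested for binding. Only the canonical form of the heat shock element was searched for. Its absence therefore says nothing about other forms of that element in these windows, that of CUP1-1 included.

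**Figure D1:**
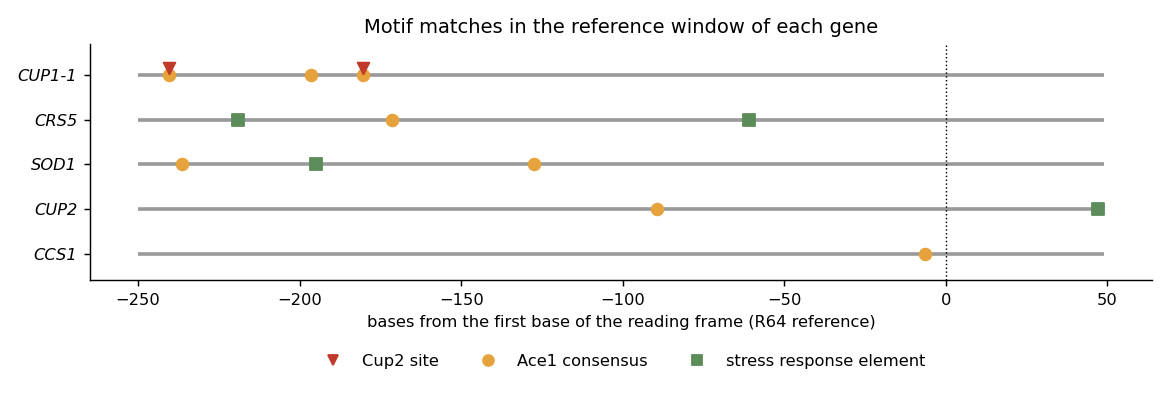
Positions of motif matches (x axis, bases from the first base of the reading frame, R64 reference) in the windows of the 5 genes (rows). Red triangles mark TTTTGCTG, orange circles the Ace1 consensus and green squares the stress response word. CUP1-1 has 3 orange circles, of which 2 coincide with red triangles.

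The deposited table has no line for CUP1-2 or for the repeat gene YHR054C. The coding sequence and the 250 bases before it are identical in CUP1-1 and CUP1-2 in the reference (0 differences), so reads of CUP1 copies cannot be told apart, and the number of copies in these strains is not given. CRS5 has no gene name in the table and is classed as a pseudogene by RefSeq. An antisense transcript overlaps CUP1-1 in the annotation. The library kit is directional, but how strand was used in counting is not given in the sources used here.

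Library totals ran from 12.6 to 28.3 M counts (median 20.7 M). All 5 genes passed the filter on low counts. Abundances are CPM, counts per 1 M of a TMM-scaled library total, so 3 counts correspond to 0.106 to 0.238 CPM, a floor that covers counting error only. The early meiosis markers IME1, IME2, HOP1, ZIP1, DMC1, SPO13 and REC8 had group means between 112 and 5700 CPM, and the 6 haploid mating genes with a line between 0 and 25.7 CPM. The summed early meiosis markers were 5699 to 15298 CPM over IAA groups and 9038 to 21316 CPM over DMSO groups. The 3 middle sporulation markers NDT80, SPS1 and SMK1 had group means between 0.348 and 620 CPM. Their sum differed widely between groups, at 19.3 to 1113 CPM over IAA groups and 35.9 to 1166 CPM over DMSO groups. The part of these shifts in the results below was not tested. In such bulk samples, fewer cells of a kind and less RNA per cell cannot be told apart.

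A set of 3 DMSO libraries stood apart from the other 30. CUP1-1 was 176 CPM in XRN1 DMSO library 3, 82.6 CPM in RAT1 DMSO library 2 and 29.1 CPM in RAT1 DMSO library 1, against 4.36 to 16.5 CPM (median 7.21) in the other 30 DMSO libraries. CRS5 was 18.5 CPM in that XRN1 library, above the 2.80 to 7.89 CPM of the other 30, while the pair of RAT1 libraries lay at 7.88 and 6.69 CPM, inside the range. The same 3 libraries had less mRNA of the copper uptake genes CTR1, CTR3, FRE1 and IRC7 than every other DMSO library. CTR3, a high-affinity copper transporter gene, was at 116, 147 and 475 CPM in XRN1 library 3, RAT1 library 2 and RAT1 library 1, against 850 to 3884 CPM in the other 30. CTR1, the other such transporter gene, was at 106, 80.0 and 140 CPM in the same order, against 232 to 1004 CPM. SOD1, CUP2 and CCS1 lay within the range of the other 30 DMSO libraries in all 3. Results on XRN1 and RAT1 are therefore given with and without these libraries. The fit without them was chosen after the data were seen, and it leaves RAT1 with 1 DMSO library, which is assumed to vary like those of the other groups.

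**Figure D2:**
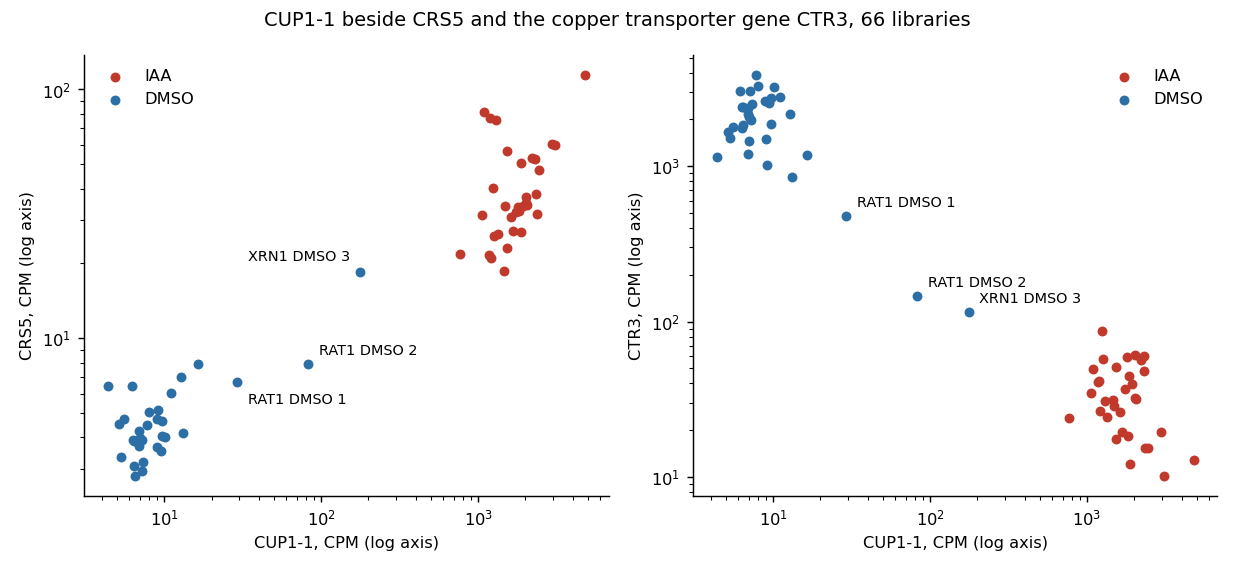
CUP1-1 (x axis, CPM, log axis) against CRS5 (left) and CTR3 (right; y axes, CPM, log axes) in 33 IAA libraries (red) and 33 DMSO libraries (blue), one point per library. The 3 named DMSO libraries lie between the DMSO cloud and the IAA cloud on the CUP1-1 axis, and on the CTR3 axis they lie below the remaining DMSO libraries and above the IAA libraries.

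CUP1-1 encodes the main copper-binding metallothionein, and its mRNA rose in IAA in every strain. In WT it was 1831, 1668 and 1747 CPM in the IAA libraries, against 9.74, 6.34 and 7.00 CPM in the DMSO libraries. The groups were far apart, with a log2 change of 7.85 (SE 0.78, adjusted p = 1.4e-09, limma), about 231-fold. All 3 IAA libraries exceeded all 3 DMSO libraries in each of the 11 strains. CUP1-1, CRS5 and SOD1 were each called higher (adjusted p under 0.05) in 11 of 11 strains, CUP2 in 2 and CCS1 in none. The share of all 5828 genes tested that was called higher was 4.74% in CAF40, 16.7% in POP2, 6.14% in NOT5, 1.1% in DCP2, 8.13% in LSM1, 8.15% in PAB1, 1.06% in PAT1, 7.04% in RAT1, 2.59% in RRP6, 5.35% in XRN1 and 1.68% in WT. Ranked by log2 change, CUP1-1 had the largest rise of all genes in 10 strains and the second largest in RAT1.

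The CUP1-1 change was 8.50 in POP2 (SE 0.80), the highest of the 11. In POP2 the IAA libraries had 2051, 2030.2 and 2319 CPM, against 6.89, 5.29 and 5.57 CPM in the DMSO libraries. These are the lowest DMSO mean of the 11 strains beside an IAA mean in the upper part of the range. LSM1 had the highest induced levels, 4775, 2448 and 3071 CPM in IAA, against 16.5, 12.8 and 9.12 CPM in DMSO (8.04, SE 0.75). Its IAA library 1 held the highest CUP1-1 level of all 66 libraries, and the 3 LSM1 libraries were spread more widely than those of WT.

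The smallest CUP1-1 changes stood in the strains of the raised DMSO libraries. XRN1 had 771, 1210.4 and 1174 CPM in IAA, against 6.90, 6.44 and 176 CPM in DMSO, a change of 5.59 (SE 0.63, adjusted p = 8.1e-08). Without the 3 raised libraries the XRN1 change was 7.28. RAT1 had 1519, 2953 and 1862 CPM in IAA, against 29.1, 82.6 and 7.34 CPM in DMSO. The RAT1 change was 6.29 (SE 0.66), and 8.09 without the same 3 libraries. Both values without the raised libraries lie within the 7.14 (RRP6) to 8.50 (POP2) spanned by the other 9 strains. The 3 libraries were picked for high CUP1-1 in DMSO, so larger changes without them follow from that choice. The fit without them is therefore no fair test of CUP1-1. When only the 2 groups of XRN1 were fitted, its CUP1-1 call was lost (adjusted p = 0.117). In that fit 0 of the 5828 genes tested were called.

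In the remaining strains the IAA libraries lay between 1060.4 CPM (DCP2 library 1) and 2353 CPM (PAB1 library 2), and the DMSO libraries between 4.36 CPM (PAB1 library 2) and 13.2 CPM (DCP2 library 1). Averaged over the 11 strains, CUP1-1 rose by 7.48 on the log2 scale (SE 0.23, adjusted p = 1.5e-30). On that average 53.9% of all genes were called in one direction or the other. The CUP1-1 changes did not differ among strains beyond the spread shared by all groups, the raised libraries included (F test, adjusted p = 0.349). That test called 32.6% of all genes.

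**Figure D3:**
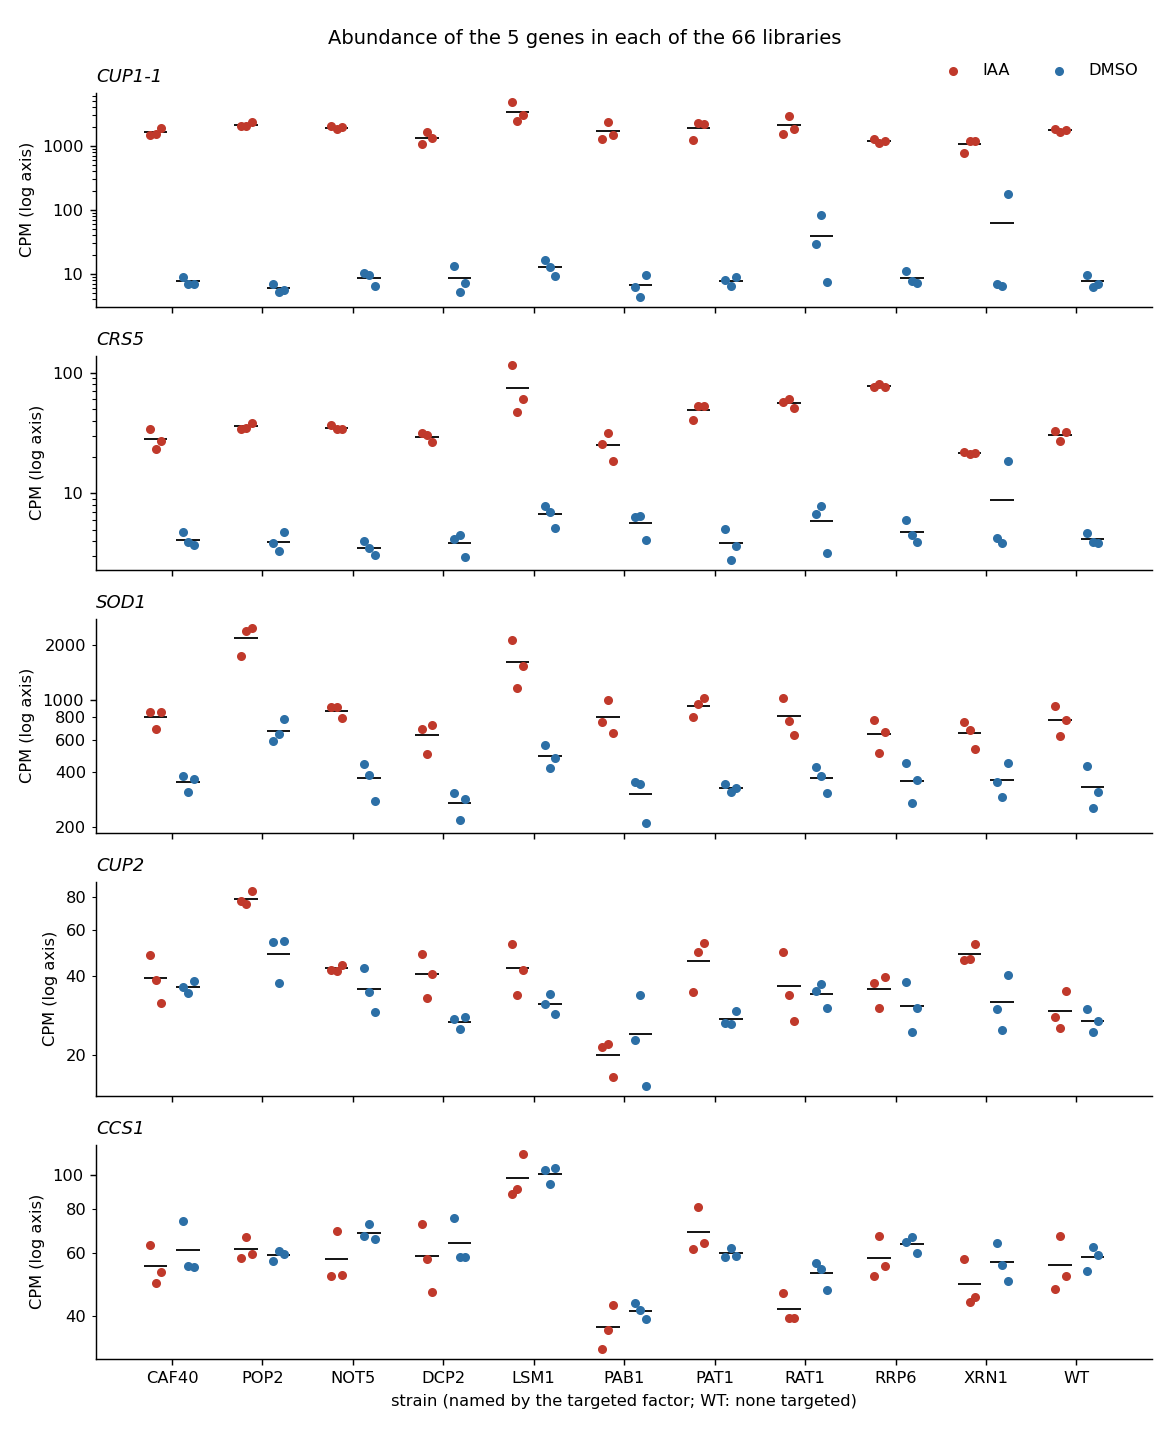
Abundance (y axes, CPM, log axes) of the 5 genes in each library by strain (x axis), with IAA libraries in red to the left of DMSO libraries in blue and black bars at group means (n = 3). The red and blue points of CUP1-1, CRS5 and SOD1 are separate in all 11 strains, while those of CUP2 and CCS1 overlap in most.

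CRS5 encodes a metallothionein-like protein that also binds copper. In WT it had 32.5, 27.0 and 32.2 CPM in IAA, against 4.67, 3.92 and 3.90 CPM in DMSO. Those groups do not overlap, and the change was 2.87 (SE 0.37, adjusted p = 6.4e-07), about 7.33-fold. Across strains the CRS5 change ranked between the second and the 38th largest rise of all genes, with a median rank of 4. Averaged over strains it was 3.02 (SE 0.11, adjusted p = 3.7e-28).

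CRS5 was the one gene of the 5 whose change differed among strains without a block (F test, F = 3.65, adjusted p = 0.0064). That test called 32.6% of all genes. With all libraries fitted, RRP6 had the largest change: 75.3, 80.8 and 76.5 CPM in IAA, against 6.01, 4.47 and 3.92 CPM in DMSO (4.04, SE 0.38, adjusted p = 1.5e-10). The 3 RRP6 IAA libraries lay close together, above every WT library. PAT1 followed with 40.1, 52.8 and 53.1 CPM in IAA, against 5.08, 2.80 and 3.67 CPM in DMSO (3.68, SE 0.36). LSM1 had 115, 47.3 and 59.9 CPM in IAA, against 7.89, 6.97 and 5.17 CPM in DMSO (3.37, SE 0.30), and its library 1 was again the highest.

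At the other end, PAB1 had 25.7, 31.5 and 18.6 CPM in IAA, against 6.41, 6.45 and 4.06 CPM in DMSO (2.12, SE 0.37, adjusted p = 2.1e-05). PAB1, the coat of the poly(A) tail, is the strain in which the DMSO libraries differed from WT at the most genes. XRN1 had 21.8, 21.0 and 21.6 CPM in IAA, against 4.25, 3.89 and 18.5 CPM in DMSO (1.61, SE 0.32, adjusted p = 8.9e-04). Without the 3 raised libraries the XRN1 change was 2.40. With only the 2 groups of XRN1 fitted the CRS5 call was lost (adjusted p = 0.168), in the fit where 0.0% of all genes were called. RAT1 had 56.6, 60.5 and 50.8 CPM in IAA, against 6.69, 7.88 and 3.18 CPM in DMSO (3.35, SE 0.32). Without the raised libraries the RAT1 change was 4.13, above the 4.04 of RRP6 with all libraries.

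SOD1 encodes the abundant cytosolic copper-zinc superoxide dismutase. In WT it had 919, 632 and 770 CPM in IAA, against 430, 255 and 310 CPM in DMSO, a change of 1.23 (SE 0.23, adjusted p = 3.1e-04), about 2.35-fold. The SOD1 rise is far smaller than those of the metallothionein genes and starts from a higher level. No IAA library fell within the DMSO range of its own strain in any of the 11 strains. Averaged over strains the change was 1.28 (SE 0.07, adjusted p = 1.7e-20).

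POP2 and LSM1 had the largest SOD1 changes. POP2 had 1736, 2378 and 2466 CPM in IAA, against 591, 648 and 784 CPM in DMSO (1.70, SE 0.27). LSM1 had 2140, 1166 and 1535 CPM in IAA, against 564, 420 and 477 CPM in DMSO (1.69, SE 0.26). In both strains the DMSO libraries were already high beside WT, a difference taken up below. The smallest changes were 0.86 in RRP6 (SE 0.22, adjusted p = 0.011) and 0.88 in XRN1 (SE 0.23, adjusted p = 0.011), and the XRN1 value was 1.03 without the 3 raised libraries. The RRP6 call was lost without IAA library 1 (adjusted p = 0.111), IAA library 3 (0.0502) or DMSO library 2 (0.107), and the XRN1 call without IAA library 1 (0.0793), IAA library 2 (0.0611) or DMSO library 2 (0.104). With only the 2 groups of a strain fitted, the SOD1 calls of LSM1 (adjusted p = 0.078), RRP6 (0.0934) and XRN1 (0.115) were lost. In those fits 0.309%, 1.99% and 0.0% of all genes were called higher, in the same order. The difference among strains did not pass the test for SOD1 (F test, adjusted p = 0.309), but did with a block for strain and replicate number (0.005), where 64.1% of all genes were called.

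CUP2 encodes the activator itself, whose activity is known to be set by copper binding to the protein. In WT it had 28.1, 25.4 and 35.3 CPM in IAA, against 30.0, 24.5 and 27.0 CPM in DMSO, and the groups overlap (0.12, SE 0.22, adjusted p = 0.86). The change was positive in 10 of 11 strains and called in 2. POP2 had 77.8, 75.2 and 84.3 CPM in IAA, against 53.9, 37.8 and 54.6 CPM in DMSO (0.71, SE 0.19, adjusted p = 0.0024), and XRN1 had 46.1, 46.5 and 53.2 CPM in IAA, against 30.1, 24.9 and 40.6 CPM in DMSO (0.63, SE 0.20, adjusted p = 0.042).

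Libraries of the same number deviated together in 8 strains, and with a block for strain and number CUP2 was called higher in 5. The block added DCP2 (0.59, adjusted p = 0.024), LSM1 (0.45, adjusted p = 0.029) and PAT1 (0.73, adjusted p = 0.0078), whose adjusted p without it were 0.15, 0.13 and 0.061. With the block the share of all genes called higher was 4.89% in DCP2, 17.3% in LSM1 and 4.02% in PAT1. DCP2 had 48.6, 33.1 and 40.9 CPM in IAA, against 27.7, 25.1 and 27.9 CPM in DMSO, so its groups do not overlap. PAB1 was the one strain with a negative value (-0.23, SE 0.25): 21.5, 22.1 and 16.5 CPM in IAA, against 22.9, 34.1 and 15.3 CPM in DMSO. The XRN1 call was lost without any one of IAA libraries 1 to 3 or DMSO libraries 1 and 2 (adjusted p 0.0977 to 0.28), and the value was 0.83 without the 3 raised libraries (adjusted p = 0.02). The PAT1 call was gained without IAA library 1 (adjusted p = 0.0152). Averaged over strains, CUP2 rose by 0.33 (SE 0.06, adjusted p = 1.8e-05), about 1.26-fold. On that average 24.0% of all genes were called higher. The difference among strains did not pass (F test, adjusted p = 0.109), but did with the block (0.0163), where 64.1% of all genes were called.

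CCS1 encodes the chaperone that inserts copper into Sod1. It had 47.6, 67.1 and 52.0 CPM in IAA, against 53.6, 62.5 and 59.5 CPM in DMSO, in WT (-0.09, SE 0.15, adjusted p = 0.83). The value was negative in 9 of 11 strains, and limma called none, with 1 strain at an unadjusted p under 0.05. That strain was RAT1, with 46.6, 39.4 and 39.6 CPM in IAA, against 56.4, 54.4 and 47.5 CPM in DMSO (-0.34, SE 0.15, adjusted p = 0.11). The RAT1 groups do not overlap, and with the block RAT1 was called lower (-0.34, adjusted p = 0.0076), as was NOT5 (-0.26, adjusted p = 0.047). With the block 20.2% of all genes were called lower in RAT1 and 10.9% in NOT5. Without the 3 raised libraries the RAT1 value was -0.19 (adjusted p = 0.74). Averaged over strains, CCS1 fell by 0.11 (SE 0.04, adjusted p = 0.026), where 29.9% of all genes were called lower. This CCS1 call was lost when genes were required to average 10 counts or more (adjusted p = 0.0713).

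**Figure D4:**
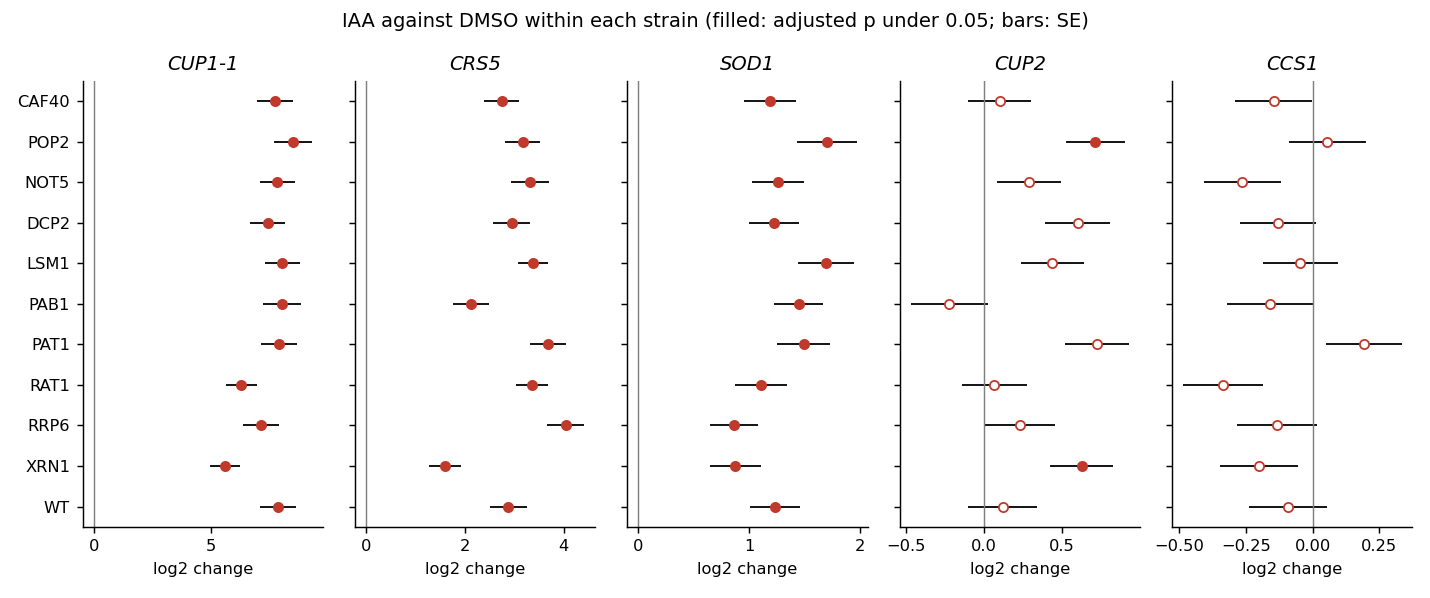
Log2 change of IAA against DMSO (x axes, with a separate scale per gene) within each strain (rows), with bars of 1 SE. Filled points have an adjusted p under 0.05. All 11 points are filled for CUP1-1, CRS5 and SOD1, 2 for CUP2 and none for CCS1.

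Levels were compared between genes as CPM per kilobase of coding sequence, from group means. In IAA groups CUP1-1 was highest, at 5654 to 18450 CPM per kilobase (median 9402), followed by SOD1 at 1372 to 4717 (median 1724). CRS5 stood at 102 to 369 CPM per kilobase (median 167), CCS1 at 49.7 to 130 (median 77.2) and CUP2 at 29.6 to 117 (median 60.3). In DMSO groups the order differed: SOD1 was highest, with a median of 771 CPM per kilobase, then CCS1 with 80.0, while CUP2 with 46.3 and CUP1-1 with 46.0 were close and CRS5 was lowest with 19.8. By this measure CUP1-1 was above SOD1 in IAA and level with the gene of its activator in DMSO. Poly(A)-selected reads over a reading frame as short as that of CUP1-1 (186 bases) also include flanking sequence of the transcript, which this length leaves out.

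Whether losing a factor altered the IAA change was tested as an interaction, the change of a targeted strain minus that of WT. None of the 5 genes was called in any of the 10 strains with limma, nor under any scaling, filter, weighting or block tried. At an unadjusted p under 0.05 stood CRS5 in 2 strains, CUP1-1 in 1 and CUP2 in 1. Of all genes, 0.0% were called in CAF40, 9.69% in POP2, 0.326% in NOT5, 0.0% in DCP2, 0.48% in LSM1, 1.37% in PAB1, 0.0515% in PAT1, 6.88% in RAT1, 0.0172% in RRP6 and 0.0% in XRN1. For CRS5 the interaction was 1.17 in RRP6 (95% interval 0.10 to 2.23) and -1.27 in XRN1 (-2.26 to -0.27), and the XRN1 value was -0.47 without the 3 raised libraries. The CUP1-1 interaction was -2.27 in XRN1 (-4.28 to -0.25) and -1.56 in RAT1 (-3.61 to 0.49), and it was -0.58 and 0.24 without the raised libraries. CUP1-1 intervals were wide: that of CAF40, whose estimate was -0.12, ran from -2.32 to 2.08. They rest on the spread shared by all groups, which the raised libraries enter, and not on CAF40 and WT alone. For SOD1 the estimates lay between -0.37 (RRP6) and 0.47 (POP2, interval -0.24 to 1.18), and for CUP2 the largest were 0.61 in PAT1 (-0.0017 to 1.21) and 0.59 in POP2 (0.0098 to 1.18).

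Set directly beside WT under IAA, 4 of the 5 genes differed in at least 1 strain, with 12 calls in all. The share of all genes called was 6.13% in CAF40, 49.5% in POP2, 17.8% in NOT5, 0.292% in DCP2, 36.8% in LSM1, 50.4% in PAB1, 1.66% in PAT1, 23.8% in RAT1, 4.24% in RRP6 and 10.6% in XRN1. The 10 comparisons share the 3 WT IAA libraries. CRS5 was 2.54-fold higher in RRP6 IAA than in WT IAA libraries (1.35, SE 0.24, adjusted p = 7.8e-05), although only 4.24% of genes were called there. It was also higher in LSM1 (1.17, SE 0.24, adjusted p = 1.2e-04) and RAT1 (0.87, SE 0.24, adjusted p = 0.0057). The RRP6 libraries lay at 75.3 to 80.8 CPM against 27.0 to 32.5 CPM in WT, with no overlap.

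SOD1 was higher in POP2 IAA than in WT IAA libraries (1.51, SE 0.27, adjusted p = 6.6e-06) and in LSM1 (1.03, SE 0.26, adjusted p = 0.0017). CUP2 was higher in POP2 (1.43, SE 0.20, adjusted p = 9.1e-08), XRN1 (0.73, SE 0.21, adjusted p = 0.018) and LSM1 (0.53, SE 0.21, adjusted p = 0.039), and lower in PAB1 (-0.57, SE 0.23, adjusted p = 0.04). All 3 POP2 libraries were at 75.2 CPM or more, above the highest WT IAA library at 35.3 CPM. CCS1 was higher in LSM1 (0.82, SE 0.14, adjusted p = 1.2e-05), with 88.2, 91.2 and 114 CPM against 47.6, 67.1 and 52.0 CPM in WT, and lower in PAB1 (-0.56, SE 0.16, adjusted p = 0.0024) and RAT1 (-0.40, SE 0.15, adjusted p = 0.046). Same-numbered RAT1 and WT IAA libraries had residual correlations of 0.109, 0.302 and 0.106, and with a block for the number the RAT1 call was lost (-0.40, adjusted p = 0.102). LSM1 was thus called at 4 of the 5 genes, but with only the 2 groups fitted the CCS1 call alone was kept there (adjusted p = 0.036). In that fit 12.0% of all genes were called. Leaving out single libraries ended 4 of the calls. They were CUP2 in LSM1 (WT library 1 or 2, LSM1 library 1 or 3, adjusted p 0.0751 to 0.204), CUP2 in PAB1 (WT library 1 or 3, any PAB1 library, 0.0516 to 0.19), CUP2 in XRN1 (WT library 1 or 2, XRN1 library 3, 0.0594 to 0.1) and CCS1 in RAT1 (WT library 2 or 3, RAT1 library 2 or 3, 0.0537 to 0.316).

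CUP1-1 was not called against WT under IAA in any strain with limma, at an adjusted or an unadjusted p under 0.05. Its highest value was 0.92 in LSM1 (SE 0.76, adjusted p = 0.37), and also 0.92 without the 3 raised DMSO libraries. CRS5 in PAT1 was 0.66 without them (adjusted p = 0.12 with all libraries). These libraries belong to neither side of either comparison, and enter through the estimate of the spread that all groups share. As they were picked for high CUP1-1, leaving them out narrows that spread for CUP1-1 by choice. No call is drawn here from that fit.

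Under DMSO, 5 differences from WT were called. The share of all genes called was 0.0515% in CAF40, 24.8% in POP2, 0.172% in NOT5, 0.103% in DCP2, 30.2% in LSM1, 45.3% in PAB1, 0.0515% in PAT1, 0.755% in RAT1, 0.824% in RRP6 and 0.0515% in XRN1, and the 5 calls fell in the strains of the 3 largest shares. SOD1 was higher in POP2 DMSO than in WT DMSO libraries (1.04, SE 0.23, adjusted p = 6.1e-04), with 591 to 784 CPM against 255 to 430 CPM. SOD1 was higher in LSM1 too (0.57, SE 0.22, adjusted p = 0.044), with 420 to 564 CPM, so this last pair of groups overlaps; the call was lost without WT DMSO library 2 or 3, or LSM1 DMSO library 1 or 3 (adjusted p 0.0912 to 0.237). CUP2 was higher in POP2 (0.83, SE 0.21, adjusted p = 0.0025). CCS1 was higher in LSM1 (0.78, SE 0.14, adjusted p = 6.5e-05), at 93.9 to 104 CPM against 53.6 to 62.5 CPM in WT, and lower in PAB1 (-0.50, SE 0.15, adjusted p = 0.0078), at 39.2 to 43.5 CPM. For these 5 pairs of gene and strain the difference from WT had the same sign under IAA and DMSO, as the plot of differences from WT shows. CUP1-1 was not called against WT under DMSO in any strain, and its difference in LSM1 was 0.73 without the 3 raised libraries.

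**Figure D5:**
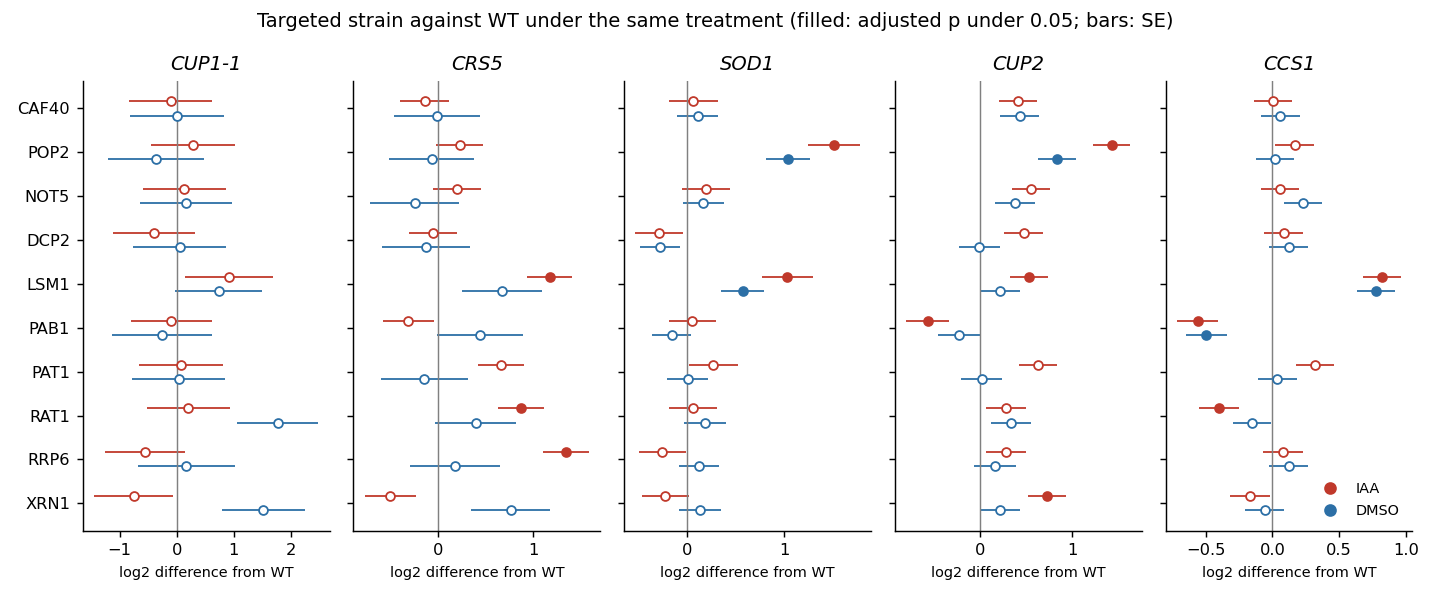
Log2 difference of each targeted strain (rows) from WT under IAA (red) and DMSO (blue), with bars of 1 SE and a separate x scale per gene; filled points have an adjusted p under 0.05. CRS5 in RRP6 is high under IAA but not DMSO, while CCS1 in LSM1 and PAB1 is displaced under both.

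Genes of copper uptake moved the other way. Of the 7 genes of that list, 6 had a line: the activator gene MAC1, the transporter genes CTR1 and CTR3, the reductase genes FRE1 and FRE7, and IRC7, a further Mac1 target. CTR1, CTR3 and FRE1 were called lower in 11 of 11 strains, FRE7 in 7 and IRC7 in 6, while MAC1 was called higher in 3. The MAC1 calls fell in POP2, NOT5 and XRN1, where 16.7%, 6.14% and 5.35% of all genes were called higher. In WT, 5 of the 6 were called lower, with 1.73% of all genes called lower; the median log2 change of the list was -1.99, against -0.03 over all genes. In WT CTR3 had 18.4, 19.6 and 37.1 CPM in IAA, against 1874, 1755 and 2062 CPM in DMSO (-6.31, SE 0.67). CTR1 in WT had 36.6, 50.5 and 37.5 CPM in IAA, against 605, 632 and 663 CPM in DMSO (-3.95, SE 0.47).

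Among the other 10 strains the list had between 3 and 5 of 6 called lower. The share of all genes called lower was 3.07% in CAF40, 19.5% in POP2, 4.08% in NOT5, 0.704% in DCP2, 10.4% in LSM1, 14.0% in PAB1, 0.275% in PAT1, 13.0% in RAT1, 2.02% in RRP6 and 3.5% in XRN1. Of the 13 copper delivery genes, all tested, FET3 was the most regular: this gene of the copper-dependent iron oxidase was called higher in 10 strains, with log2 changes of 1.47 (NOT5) and above. In WT FET3 had 979, 1472 and 951 CPM in IAA, against 134, 182 and 244 CPM in DMSO (2.62, SE 0.51). CCC2, the pump that loads copper into Fet3, was called higher in 5 strains: CAF40, POP2, NOT5, LSM1 and PAB1. The share of all genes called higher there was 4.74%, 16.7%, 6.14%, 8.13% and 8.15%, in the same order. Over all strains that share ran from 1.06% (PAT1) to 16.7% (POP2). Genes that serve copper delivery to cytochrome oxidase went both ways. SCO1 was called lower in 5 strains, CMC2 in 4 and SCO2 in 1, and none of them higher. COX23 was called higher in 2 strains, COX17, COX11, CMC1 and PIC2 in 1 each, and none of them lower. COX19 was not called in any strain. ATX1, the chaperone that hands copper to Ccc2, was called lower in 1 strain and higher in none.

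Of the 5 genes of other oxidant defences, 1 was called higher in POP2, where 16.7% of all genes were. Called lower were 2 in NOT5 (4.08% of all genes), 1 in LSM1 (10.4%) and 1 in RRP6 (2.02%). SOD2, the mitochondrial manganese superoxide dismutase gene, was lower in 2 strains and higher in none, with values between -0.68 and 0.03. HSF1, the heat shock factor gene whose product can also activate CUP1, was called in no strain (-0.17 to 0.33). Of the unique genes at the CUP1 repeat, RSC30 was called higher in 3 strains and CIC1 in none. The RSC30 calls fell in POP2, LSM1 and PAB1, where 16.7%, 8.13% and 8.15% of all genes were called higher.

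The neighbours of the members in the reference were counted in the same way. Of all genes, between 1.06% (PAT1) and 16.7% (POP2) were called higher in a strain, and between 0.275% (PAT1) and 19.5% (POP2) lower. Whether the calls of neighbours are linked to those of the members was not tested. The genes beside CRS5, DFG16 and HMS1, were called higher in no strain, and DFG16 was called lower in 1. Beside SOD1, ADO1 was called higher in 4 strains (values between -0.02 and 1.14) and URA8 in none, while URA8 was called lower in 2. Beside CUP2, PMR1 was called higher in 5 strains (0.15 to 0.75) and YRB30 in none, while YRB30 was called lower in 1. Beside CCS1, SUB1 was called higher in 5 (0.09 to 1.32) and MSN2 in 1. The coding genes next to CUP1-1 in the reference had no tested line.

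Over the 22 group means of log2 CPM, the gene most like CUP1-1 among 5209 genes of at least 10 CPM on average was CRS5 (Pearson r = 0.964), followed by DRE2 (0.935) and AHA1 (0.913). For CRS5 the order was CUP1-1, DRE2 (0.911) and YDJ1 (0.880). SOD1 was most like HCH1 (0.924), DPA10 (0.902) and HSP78 (0.889). CUP2 was most like MAC1 (0.908), the gene of the activator for copper scarcity, then VAM3 (0.904) and MRX6 (0.894). CCS1 was most like NCB2 (0.900), MED8 (0.898) and FSH3 (0.884). These coefficients describe 22 means that share the contrast of IAA with DMSO, so genes that responded to it are alike on that ground.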

How the data were processed

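RNA behind the 66 libraries of diploid yeast was poly(A)-selected with a directional kit and sequenced in 100 bp pairs, per the labels' protocols. The submitters' processing notes name STAR 2.7.10a, RSEM 1.3.1 and DESeq2 1.48.1 without their roles; the genome build and annotation are not given in the sources used here. The authors deposited whole-number read counts per gene and, in the same columns above the genes, principal component scores, so the unit of the deposited columns is other than counts taken whole, and the scores were not used. A further 6 columns match no sample and were not used.

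The 5 genes and all lists were chosen with earlier results of these data known. Genes named are the members, fixed copper, oxidant and repeat lists, reference neighbours and the 3 most similar genes per member. Genes with 0.484 CPM (10 counts at the median depth) in at least 3 libraries and at least 15 counts in total were kept (5828 of 6171). Log2 CPM (pseudocount 0.5, TMM scaling with trims of 0.3 and 0.05) with voom weights were fitted in limma 3.58.1 (R 4.3.3), with 1 mean per group over all 66 libraries. The columns taken whole are not counts, as the scores stand in them, so limma-voom on the gene lines was chosen over a count model. The gene lines themselves are whole-number counts. P-values were adjusted by Benjamini-Hochberg over all genes within each comparison and called at 0.05. Fitted fold changes rest on log2 values. The script was tested on simulated data. Python 3.11.15 drew the figures.

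Comparisons were IAA against DMSO (11), the change beyond WT (10), strain against WT under IAA or DMSO (10 each), the average over strains and an F test among strains. Replicate pairs differed by more than counting noise (chi-square per degree of freedom 20.9 to 1116). Same-numbered IAA and DMSO libraries were taken as paired where every pair's residual correlation exceeded 0.1, in 8 of 11 strains (0.163 to 0.696), and not in WT, CAF40 or POP2 (lowest -0.159). Names, coding lengths and promoters are those of RefSeq's R64 assembly, where 91.2% of the table's identifiers were found. Alternatives were 2 other scalings, 2 other filters, no voom weights, only the groups compared, a replicate block, each library left out, and the fit without 3 DMSO libraries.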

Additional observations from a re-analysis of the deposited data

Results flagged for a closer look

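CRS5 changed by different amounts in the 11 strains: the F test over the 10 differences from WT gave an adjusted p of 0.0064 (limma). The same test called 32.6% of all genes. The log2 change of IAA against DMSO was 4.04 in RRP6, 3.68 in PAT1, 3.37 in LSM1, 2.12 in PAB1, 1.61 in XRN1 and 2.87 in WT. Each single difference from WT missed the threshold in limma, with adjusted p of 0.64 for XRN1 (-1.27) and 1.0 for RRP6 (1.17), whose unadjusted p were 0.013 and 0.032. XRN1 includes the DMSO library in which CRS5 stood at 18.5 CPM; the adjusted p of the F test was 0.0041 without that library and both raised RAT1 libraries.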

How the results depend on the processing

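Over the 11 strains the 5 genes gave 35 calls in IAA against DMSO, and 29 to 40 under the alternatives. The change beyond WT gave 0 calls under all alternatives, including each library left out. Strain against WT under IAA gave 12 calls and 6 with only the groups compared. The F test among strains gave 1 call (32.6% of all genes called), 2 with total-count scaling (40.7%) and 3 with the replicate block (64.1%). CUP2 in RAT1 turned to -0.024 with total-count scaling. Leaving out each library gave 33 to 36 calls in IAA against DMSO, 4 to 6 in DMSO against WT DMSO, 9 to 13 in IAA against WT IAA, 4 to 5 in the average and 1 to 2 in the F test (2 without PAB1 DMSO library 3). Leaving out a library turned the sign of uncalled values, whose ranges for CUP2 were -0.017 to 0.22 in WT, -0.048 to 0.24 in CAF40, -0.48 to 0.078 in PAB1 and -0.16 to 0.23 in RAT1. For CCS1 they were -0.23 to 0.013 in WT, -0.30 to 0.033 in DCP2 and -0.16 to 0.045 in LSM1. The replicate block changed the calls given above for CUP2 and CCS1 within strains. Between strains, every same-numbered pair with WT exceeded the cut of 0.1 only in RAT1 under IAA and LSM1 under DMSO (residual correlations -0.43 to 0.50, median 0.0955). The cut decides this narrowly: under IAA the lowest pair was 0.106 in RAT1, 0.0987 in PAT1 and 0.0924 in RRP6. Among the unpaired, the block added CUP1-1 in LSM1 under IAA (0.92, adjusted p = 0.0097). Total-count scaling moved the median of all genes in PAB1 by -0.40 under DMSO and -0.61 under IAA against WT, and by -0.21 in IAA against DMSO. The fit with only the groups compared rests on fewer libraries, and the cause of the other shifts was not tested. CRS5 in DMSO, at 2.80 to 18.5 CPM, is the member nearest the counting floor.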
